A study of Mus musculus with 4 samples.

Results

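CD28 and its relatives form a small family of immunoglobulin-type receptors and ligands that decide whether a T cell receiving an antigen signal goes on to divide. The genes described here are 6 of the 18560 in the deposited table, picked by gene symbol and by no measured value. They are the receptors Cd28 and Icos, the activating ligands Cd80 (B7-1) and Cd86 (B7-2), and the inhibitory ligands Cd274 (PD-L1) and Pdcd1lg2 (PD-L2). All 6 were among the 12816 genes with enough counts to be tested. They were measured by RNA-seq in 4 libraries of CD4+ T cells from C57BL/6 mouse spleen, which were naive when purified and were then activated in culture through CD3 and CD28, without polarizing cytokines named in the labels (Th0 cells). There were 2 wild type libraries (replicates 1 and 6) and 2 libraries with the genotype label Setd2-CD4 cre (replicates 9 and 12). These are called knockout here, since the label and the series title point to removal of the histone H3 lysine 36 methyltransferase Setd2 by a Cre recombinase under Cd4 control. Such a Cre acts in T cells, so any other cell type in the culture keeps the gene. Whether the wild type mice carried floxed alleles, and the age and sex of the animals, are not stated in the labels. The length of stimulation differs between sources. The titles carry 48 with no unit, the treatment label gives 3 days and the design text 2 days. The agonist antibody against CD28 took the place of the natural ligands in all 4 cultures.

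In textbook terms, CD28 on the T cell binds CD80 and CD86 on antigen-presenting cells and, together with the antigen receptor, turns on phosphoinositide 3-kinase, protein kinase C theta and NF-kappa-B, which sustain IL-2 production and survival. CTLA-4, a relative induced by activation, binds the same ligands more tightly and takes them away. ICOS appears after activation and binds ICOS ligand, and it supports helper functions toward B cells. PD-L1 and PD-L2 bind the inhibitory receptor PD-1. Activated mouse T cells themselves carry some CD80, CD86 and PD-L1, and interferons raise PD-L1.

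The libraries held between 17284613 and 20418766 counts. Levels in one gene across libraries are given as CPM, counts scaled to a common library size after TMM normalization, and levels of different genes are set side by side only as FPKM, which also divides by length. The genotypes were compared by the edgeR quasi-likelihood test over all 12816 genes (two-sided). A gene was called at a p under 0.05 after Benjamini-Hochberg adjustment. Each log2 fold change sets knockout against wild type, positive where knockout is higher, and has a standard error (SE). Along the first principal component (56% of the variance) the order was wild type 6, wild type 1, knockout 9 and knockout 12. Their positions were -54.9, -7.9, 6.6 and 56.2, so libraries of one genotype also differed widely from each other. On the second component wild type 1 (-24.4) lay beside knockout 9 (-26.9), and wild type 6 (26.1) beside knockout 12 (25.2). Setd2 itself measured 157, 174, 127 and 113 CPM in replicates 1, 6, 9 and 12 (edgeR log2 -0.47, SE 0.21, adjusted p 0.421). A gene count over all exons does not show which exons were removed. Nothing in the labels ties replicates to separate animals, and with 2 libraries a group an exact permutation test of a single value cannot give a two-sided p below 0.333.

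None of the 6 genes passed the test. edgeR called 0 of them, against a background of 0.0078% of tested genes called higher and 0% called lower. At an unadjusted p under 0.05, 1 of the 6 (Cd274) was lower and 0 were higher, where 5.73% of all tested genes were lower and 6.23% higher. DESeq2 called 0 of the 6, with 0.729% of the genes it adjusted called higher and 0.804% lower, and limma-voom called 0 of the 6. For Cd28 and Cd274 the groups did not overlap, knockout being the lower, which held for 24.3% of tested genes. For 0 of the 6 was knockout the higher without overlap, against 25.4%. The median log2 fold change of the 6 was -0.17, beside 0.00 over all tested genes.

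Per length, the receptors had higher levels than the ligands. Icos averaged 162 FPKM over the 4 libraries, more than 96.6% of tested genes, and Cd28 averaged 108 FPKM, more than 94.5%. Cd274 averaged 25.5 FPKM and Cd86 17.5 FPKM, above 73.9% and 64.7% of tested genes. Cd80 averaged 6.99 FPKM and Pdcd1lg2 4.59 FPKM, above 42.6% and 34.6%. The lowest Cd28 value in any library (63.4 FPKM, knockout 12) was above the highest Cd274 value (39.3 FPKM, wild type 6). Every other pair of neighbours in this order overlapped across libraries. Icos ran from 120 to 195 FPKM and Cd28 from 63.4 to 135 FPKM, and Cd28 was the higher of the receptors in wild type 6 alone. Cd86 exceeded Cd274 in knockout 12 alone (27.1 against 18.1 FPKM). Cd86 was above Cd80 within each library, by 1.65 to 4.26 times. When CPM was divided by the length of a GENCODE transcript in place of the deposited FPKM, Pdcd1lg2 (9.11 on average) moved above Cd80 (4.92) in all 4 libraries, so the order of the 2 scarcest genes rests on the transcript length assumed.

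**Figure D1:**
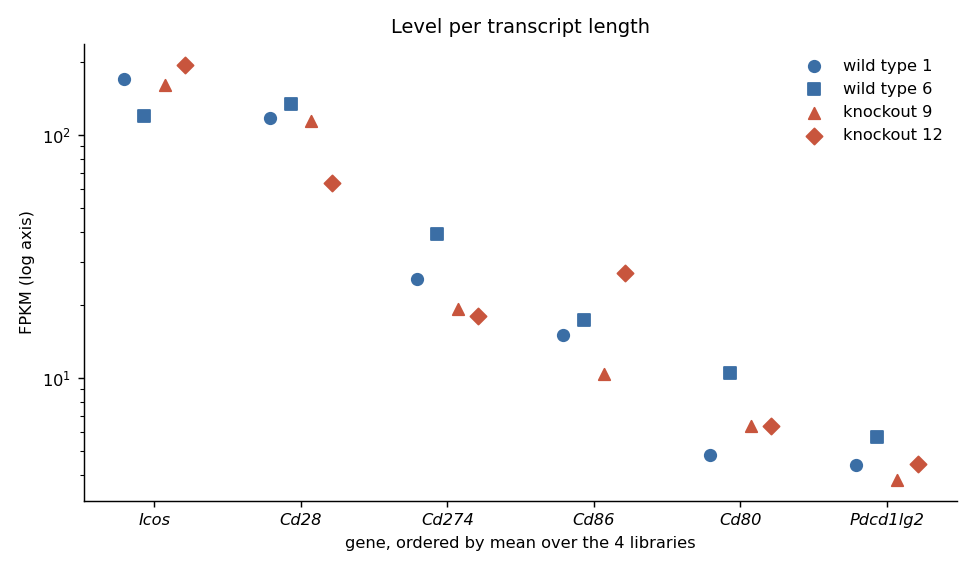
Level of the 6 genes per transcript length, in FPKM on a log axis, with 1 point per library (blue wild type, red knockout). Icos and Cd28 lie above 60 FPKM in all libraries and the 4 ligand genes lie below 40 FPKM.

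Cd28 and Icos are neighbours on chromosome 1. On GRCm38.p6, Cd28 (gene 12487) spans 60746388 to 60773359 and Icos (gene 54167) 60960773 to 61000322, with Ctla4 between them, 136 kb past the end of Cd28 and 44.9 kb before Icos. Both receptors carry, in their short cytoplasmic tails, the codons for tyrosine, methionine, any residue and methionine, the motif that binds phosphoinositide 3-kinase once the tyrosine is phosphorylated. The coding stretches around it (GRCm38, plus strand, GENCODE M21 transcripts) are shown because this motif is what the receptors share and the third codon of it is what sets them apart. The capitals mark the motif, which begins at codon 189 of 218 in Cd28 (chr1:60769684-60769713, exon 4 of 4) and at codon 181 of 200 in Icos (chr1:60995551-60995580, exon 4 of 5).
Cd28: caaagtgacTACATGAACATGactccccgg
Icos: aatagtgaaTACATGTTCATGgcggcagtc
The same search found the motif in none of the 4 ligand genes. Counts here are per gene and do not show which transcripts carry it.

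Cd28 measured 513 CPM in wild type 1, 558 CPM in wild type 6, 501 CPM in knockout 9 and 292 CPM in knockout 12. Knockout 12 was low and the other libraries lay close together, knockout 9 just under wild type 1. The log2 fold change was -0.43 (SE 0.28) with an edgeR adjusted p of 0.498, and the difference did not pass. It was -0.09 without knockout 12 and -0.85 without knockout 9 (adjusted p 0.976 and 0.238, over a range of 0.238 to 1 for all alternatives), so that 1 library carried the difference. The order of the libraries in Cd28 was the order along the first principal component. The 7 T cell markers, all above 1 CPM, summed to 2849, 2825, 2063 and 2453 CPM in replicates 1, 6, 9 and 12, lowest in knockout 9 and not in knockout 12. The part of either in the Cd28 values was not tested, and in a bulk sample fewer cells of a type and less RNA per cell cannot be told apart.

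Icos measured 563 CPM in wild type 1, 374 CPM in wild type 6, 531 CPM in knockout 9 and 677 CPM in knockout 12. Wild type 6 was the low library and knockout 12 the high one, and the groups overlapped. The log2 fold change was 0.37 (SE 0.26, edgeR adjusted p 0.534), and it ran from 0.10 without wild type 6 to 0.69 without wild type 1. Within each library Icos stood to Cd28 at a ratio of FPKM of 1.45 and 0.887 in wild type and of 1.41 and 3.08 in knockout libraries. Wild type 1 and knockout 9 thus had nearly the same balance of these receptors, with wild type 6 below and knockout 12 above them.

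**Figure D2:**
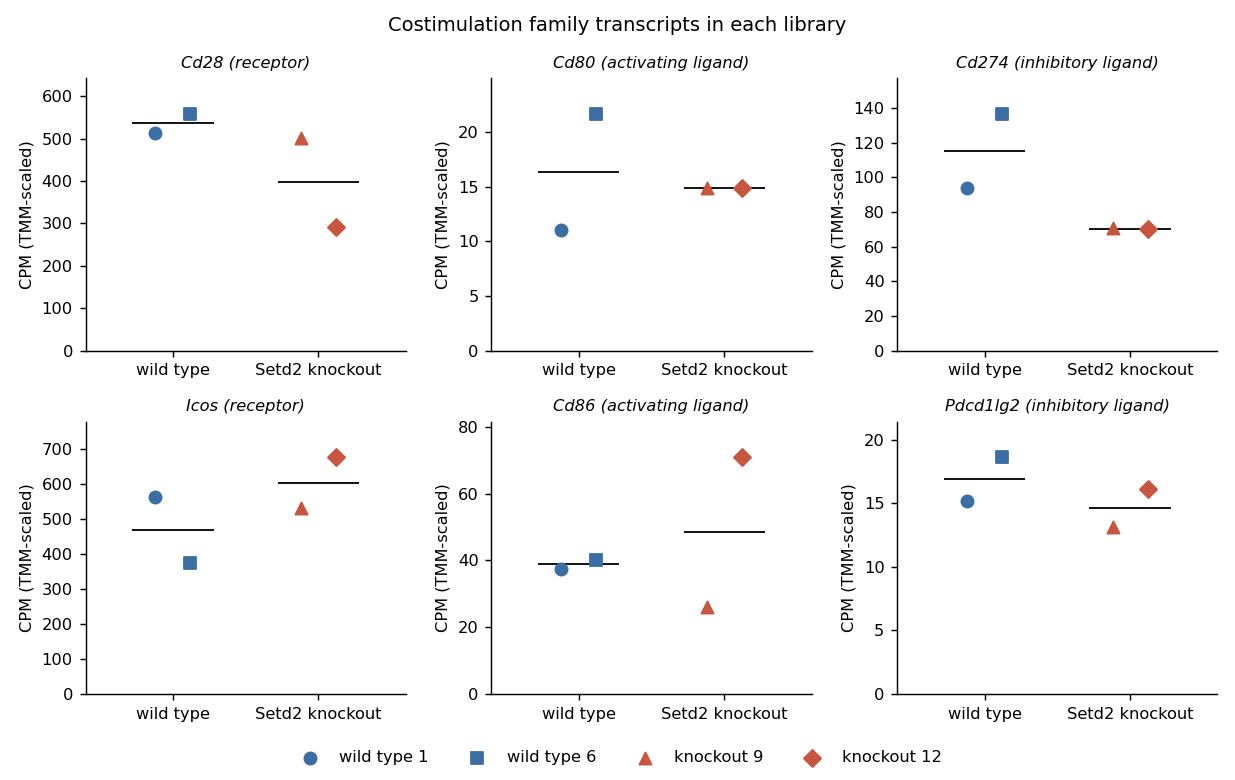
CPM after TMM scaling of each gene in each library (points) with the group mean (line), each panel from 0. Cd274 and Cd28 are the panels without overlap of the groups, knockout being the lower, Cd28 narrowly for knockout 9 (501 against 513 CPM).

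Cd80 and Cd86 encode the ligands of CD28 and CTLA-4 and lie on chromosome 16, Cd86 (gene 12524) at 36568956 to 36666158 and Cd80 (gene 12519) at 38457430 to 38495958. Neither differed by more than its error between the genotypes. Cd86 measured 37.5 CPM in wild type 1, 40.2 CPM in wild type 6, 26.0 CPM in knockout 9 and 71.0 CPM in knockout 12. The knockout libraries enclosed the wild type ones and stood 2.73-fold apart, against 1.07-fold within wild type. The log2 fold change was 0.32 (SE 0.43, edgeR adjusted p 0.745). It was 0.89 without knockout 9 and -0.57 without knockout 12, so its direction turned with the library left out.

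Cd80 measured 11.0 CPM in wild type 1, 21.6 CPM in wild type 6, and 14.9 CPM in each knockout library. Here the wild type libraries enclosed the knockout ones, which differed by less than the counting error of 6.79% at the lowest count (217 in wild type 1). The log2 fold change was -0.13 (SE 0.34, edgeR adjusted p 0.878), and it was -0.54 without wild type 1 and 0.43 without wild type 6. The counts of Cd80 were whole numbers in 2 of 4 libraries. Fractions arise where the counting divides reads between sequences, so its level is less certain.

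Both ligands are typical of antigen-presenting cells, and markers of such cells were detected in these libraries. The 5 B cell markers, all detected above 1 CPM, summed to 262, 179, 192 and 336 CPM in replicates 1, 6, 9 and 12. The 4 MHC class II genes summed to 569, 453, 541 and 1061 CPM in the same order, most of it from Cd74, the invariant chain, at 366, 298, 312 and 695 CPM. Knockout 12, the library with the most Cd86, was also the highest in both sums. The B cell markers did not all do so, since Pax5, a B cell transcription factor, measured 52.0, 40.1, 33.1 and 33.0 CPM, lowest in knockout 12. Of the 5 dendritic cell markers 4 reached 1 CPM, and they summed to 12.9 to 20.3 CPM (Zbtb46 the most abundant, 3.13 to 6.12 CPM). Of the 5 macrophage and monocyte markers 2 reached 1 CPM, with sums of 7.43 to 15.4 CPM and Cd68 at 5.90 to 12.3 CPM. Wild type 6, the library with the most Cd80, was the highest in both of these sums and the lowest in B cell markers. Zbtb46, Xcr1, Cd68 and Csf1r were highest there, but the other markers of these lists were not. Flt3 was highest in wild type 1 (5.34 against 4.75 CPM in wild type 6) and Itgax in knockout 12 (3.51 against 3.49 CPM). Lyz2, Adgre1, Cd14 and Siglech, all below 1 CPM, were highest in a knockout library. No marker of these lists was at 0 in all 4 libraries, and the part of such cells in the Cd80 and Cd86 values was not tested. The 2 CD8 markers summed to 260, 330, 432 and 323 CPM in replicates 1, 6, 9 and 12, led by Cd8b1 (141, 183, 238 and 188 CPM). The 3 natural killer markers summed to at most 5.92 CPM, Klrb1c being the most abundant at 0.966 to 3.13 CPM.

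**Figure D3:**
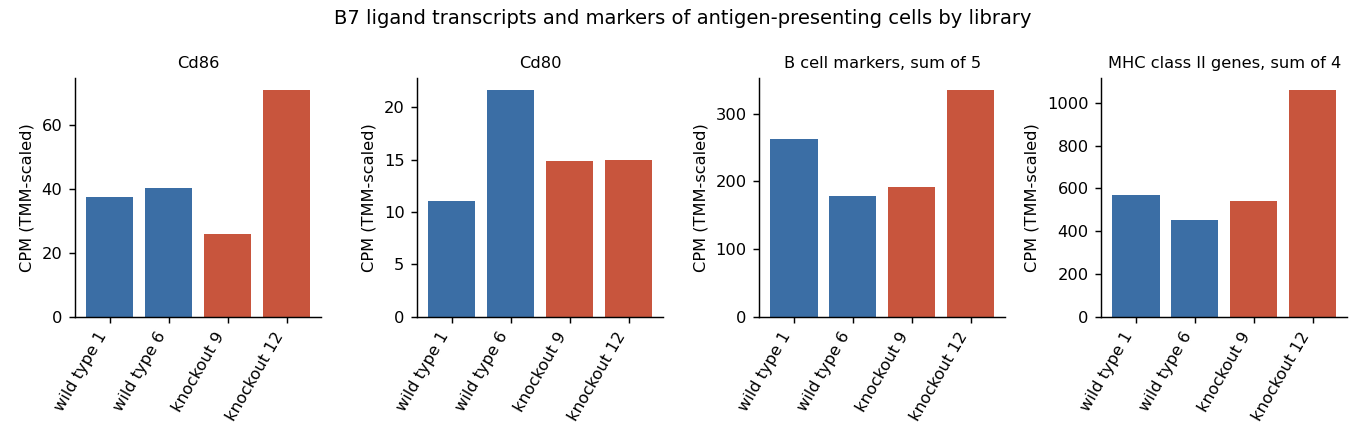
CPM of Cd86 and Cd80 and summed CPM of 5 B cell markers and 4 MHC class II genes, 1 bar per library (blue wild type, red knockout), each axis from 0. Knockout 12 has the tallest bar for Cd86 (71.0 CPM), the B cell sum (336 CPM) and the MHC class II sum (1061 CPM), and wild type 6 has it for Cd80 (21.6 CPM).

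Cd274, which encodes PD-L1, was the member that lay furthest from equality. It measured 94.0 CPM in wild type 1, 137 CPM in wild type 6, 70.7 CPM in knockout 9 and 70.0 CPM in knockout 12. The knockout libraries were nearly equal and below the wild type range, while the wild type libraries were 1.45-fold apart. The log2 fold change was -0.71 (SE 0.24), or 1.64-fold higher in wild type, with an edgeR unadjusted p of 0.0201 and an adjusted p of 0.412, so it did not pass. The sign was negative under all 15 alternatives, from -0.96 without wild type 1 to -0.42 without wild type 6. The unadjusted p was under 0.05 in every alternative that reprocessed all 4 libraries. It was no longer under 0.05 without wild type 6, without knockout 9 or without knockout 12. With all 4 libraries kept, the adjusted p of the alternatives ran from 0.189 by DESeq2 to 0.488 by limma on log2(FPKM + 0.1). Fold changes in this data set drift with gene length, and with that trend removed from each library Cd274 was at -0.60 (SE 0.21, edgeR adjusted p 0.432). As for Cd28, its libraries were ordered as along the first principal component, whose part was not tested. Its counts were whole in 0 of 4 libraries, so the counting divided some of its reads with other sequences. An antisense gene overlaps it in GENCODE, and the sources used here do not state whether counting used strand.

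Pdcd1lg2 encodes PD-L2, the other ligand of PD-1, and measured 15.2 CPM in wild type 1, 18.6 CPM in wild type 6, 13.1 CPM in knockout 9 and 16.1 CPM in knockout 12. The groups overlapped, and the log2 fold change of -0.21 (SE 0.26, edgeR adjusted p 0.727) was less than its SE. Its lowest count of 226 carries a counting error of 6.65%. It ran from -0.36 without knockout 12 to -0.05 without wild type 6 and, at the same rounding, without knockout 9. The ratio of Cd274 to Pdcd1lg2 in FPKM was 5.82 and 6.87 in wild type and 5.05 and 4.07 in knockout libraries.

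**Figure D4:**
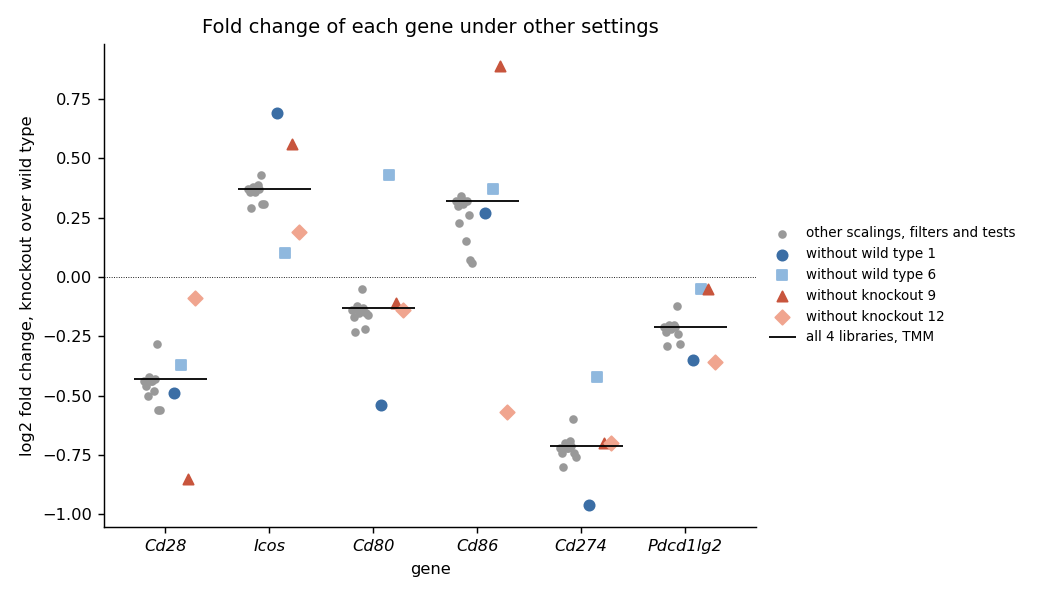
Log2 fold change of each gene (knockout over wild type) with all 4 libraries (line), with each library left out in turn (coloured symbols), and under the other scalings, filters and tests (grey). Cd274 stays between -0.96 and -0.42, whereas Cd86 runs from -0.57 to 0.89 and Cd80 from -0.54 to 0.43.

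These ligand genes are also neighbours. Cd274 (gene 60533) spans chromosome 19 from 29362107 to 29388095 and Pdcd1lg2 (gene 58205) from 29410919 to 29472927, 22.8 kb further on. Their promoters are shown because the genes adjoin each other but differ in level. Their log2 fold changes were -0.71 (SE 0.24) for Cd274 and -0.21 (SE 0.26) for Pdcd1lg2. Neither passed, and whether these differ from each other was not tested. RefSeq windows on GRCm38.p6, plus strand, from 250 bases before to 50 after the start, were available for 3 of the 6 genes (Cd274, Pdcd1lg2 and Cd80). They are at chr19:29367188-29367487 for Cd274 and chr19:29410669-29410968 for Pdcd1lg2. For Cd274 and Cd80 the start used lies inside the gene span given in the text and is not its first base. For Pdcd1lg2 it is the first base of the span. The capitals mark the motif matches given below.
Cd274: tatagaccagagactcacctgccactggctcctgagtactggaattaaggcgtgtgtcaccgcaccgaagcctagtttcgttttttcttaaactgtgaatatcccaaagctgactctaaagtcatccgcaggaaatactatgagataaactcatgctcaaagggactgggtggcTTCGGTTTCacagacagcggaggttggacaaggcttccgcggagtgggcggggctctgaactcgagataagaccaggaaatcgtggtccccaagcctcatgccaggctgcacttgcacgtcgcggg
Pdcd1lg2: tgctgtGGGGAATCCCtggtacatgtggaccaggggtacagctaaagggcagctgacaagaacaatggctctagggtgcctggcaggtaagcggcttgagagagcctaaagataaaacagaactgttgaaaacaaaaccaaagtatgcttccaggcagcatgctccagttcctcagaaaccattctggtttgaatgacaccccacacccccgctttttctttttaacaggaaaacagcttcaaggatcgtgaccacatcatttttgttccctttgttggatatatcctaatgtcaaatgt
Searched on both strands were the interferon-gamma activated site TTCNNNGAA, the interferon regulatory factor element GAAANNGAA, the AP-1 site TGANTCA and the NF-kappa-B consensus. These occur in 8.30%, 8.56%, 7.81% and 8.46% of the 32851 promoter windows. The Cd274 window held 1 match, an interferon regulatory factor element on the other strand (TTCGGTTTC, first base at -76). The Pdcd1lg2 window held an NF-kappa-B consensus, whose pattern was matched on both strands, at -244, and the Cd80 window (not printed) an AP-1 site at -42. The Cd274 window had 15 CpG dinucleotides, more than 65.4% of promoter windows, and the Pdcd1lg2 and Cd80 windows had 3 each, where the median was 7. The matches describe these letters and were not tied to any binding measured here.

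Among other genes of the family and its binding partners, Pdcd1, Icosl, Tnfrsf14 and Rgmb had fitted differences further from 0 than any of the 6 genes. Of 9 such further genes 7 were tested. Tnfrsf14 and Rgmb are listed as binding partners, of BTLA and of PD-L2, and not as family members. edgeR called 0 of the 7. Pdcd1 and Icosl were higher and Tnfrsf14 lower at an unadjusted p under 0.05, against 6.23% and 5.73% of all tested genes. DESeq2 called 1 higher (Pdcd1) and 0 lower, against 0.729% and 0.804% of the genes it adjusted. By contrast, limma-voom called 0, as it did in each list that follows. Without the filter on low counts edgeR also called Pdcd1 (adjusted p 0.0376), where it called 48 genes higher and 33 lower in all. Their median log2 fold change was -0.22, or -0.01 with the length trend removed. Pdcd1, which encodes PD-1, the receptor of both inhibitory ligands, measured 26.1, 23.8, 57.4 and 50.7 CPM in replicates 1, 6, 9 and 12, an order kept for the other genes below. That is 2.16-fold (log2 1.11, SE 0.21, edgeR adjusted p 0.261, DESeq2 adjusted p 0.00585), with both knockout libraries higher. Receptor and ligand thus lay on opposite sides, and the ratio of Pdcd1 to Cd274 in FPKM was 0.530 and 0.332 in wild type against 1.55 and 1.38 in knockout libraries. Icosl, the ligand of ICOS, measured 3.56, 3.89, 8.88 and 7.95 CPM (log2 1.17, SE 0.35, edgeR adjusted p 0.385). The B cell sum was 262, 179, 192 and 336 CPM in the same order. The part of such cells in the Icosl values was not tested.

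Tnfrsf14, the receptor of BTLA, measured 34.6, 63.3, 26.9 and 14.3 CPM (log2 -1.25, SE 0.39, edgeR adjusted p 0.394), with both knockout libraries lower. It was at log2 -1.62 without wild type 1 and was no longer past an unadjusted 0.05 without wild type 6 or without knockout 12. Its partner Btla, an inhibitory receptor, measured 102, 120, 92.6 and 83.5 CPM (log2 -0.33, SE 0.21). Ctla4 was abundant at 846, 609, 1003 and 670 CPM, and the groups overlapped (log2 0.20, SE 0.27, edgeR adjusted p 0.747). Its ratio to Cd28 in FPKM was 3.72 and 2.47 in wild type and 4.52 and 5.18 in knockout libraries, higher in both knockout libraries. Vsir, which encodes the inhibitory protein VISTA, was at -0.22 (SE 0.21) and Rgmb, a binding partner of PD-L2, at -1.07 (SE 0.62, at most 2.95 CPM in any library). Cd276 was at most 0.232 CPM and Vtcn1 was at 0 in all 4 libraries, so neither was tested.

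**Figure D5:**
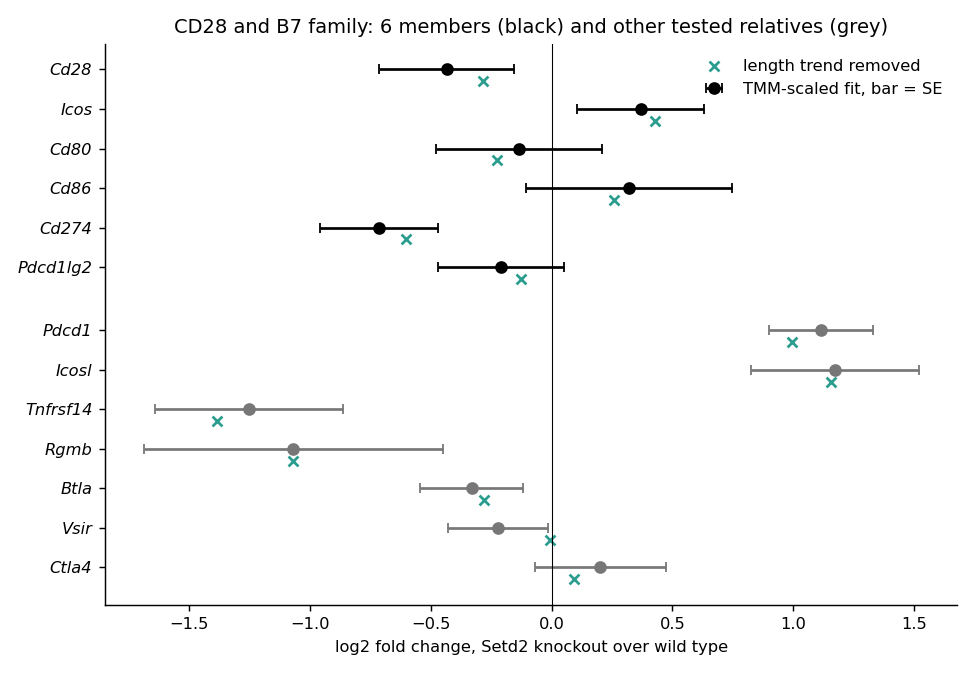
Log2 fold change (knockout over wild type) with its SE for the 6 genes (black) and the 7 other tested genes (grey). The 7 are family genes and binding partners. Crosses give the value with the length trend removed. Pdcd1 and Icosl lie near 1.1 to 1.2 and Tnfrsf14 at -1.25, all further from 0 than Cd274 at -0.71.

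Downstream of CD28 and ICOS, most signalling genes lay slightly lower in knockout libraries. Of 24 tested, 6 had a positive log2 fold change and the rest a negative one (median -0.27). Over all 12816 tested genes, 6388 were positive. For 15 of the 24 the groups did not overlap with knockout the lower, against 24.3% of all tested genes. edgeR called 0 of the 24. At an unadjusted p under 0.05 there were 4 lower and 0 higher, against 5.73% and 6.23% of all tested genes. DESeq2 called 0 higher and 1 lower (Malt1), against 0.729% and 0.804% of the genes it adjusted. The median was -0.03 with the length trend removed, where the same 4 were lower at an unadjusted p. Malt1, a protease on the way to NF-kappa-B, measured 349, 298, 181 and 187 CPM (log2 -0.81, SE 0.21, edgeR adjusted p 0.349, DESeq2 adjusted p 0.0294). Grap2, the adaptor GADS that binds the CD28 tail, measured 208, 280, 155 and 114 CPM (log2 -0.86, SE 0.26, edgeR adjusted p 0.386). The other 2 at an unadjusted p were Carmil2, a scaffold needed for CD28 signals (-0.68, SE 0.21), and Prkcq, which encodes protein kinase C theta (-0.63, SE 0.22). With the length trend removed Malt1 was at -0.59, Grap2 at -0.62, Carmil2 at -0.53 and Prkcq at -0.62. The T cell markers were on the same side, with sums of 2849 and 2825 CPM in wild type libraries against 2063 and 2453 CPM, and with Cd3g at -0.59 (SE 0.21) and Cd247 at -0.48 (SE 0.21), but Cd2 at -0.04 (SE 0.27). Their part in the list's values was not tested. The count of 4 changed with the library left out, and the share of all tested genes in such fits was not taken. The list median was -0.24 without wild type 6, -0.20 without knockout 12, -0.25 without wild type 1 and -0.34 without knockout 9.

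Genes that costimulation helps to induce did not lean one way. Of 12, 11 were tested, 7 with a positive log2 fold change, and the median was 0.09. edgeR and DESeq2 called 0. At an unadjusted edgeR p under 0.05 the count was 2 up in knockout libraries and 0 down, against 6.23% and 5.73% of all tested genes. It was 1 up and 0 down with the length trend removed. It also changed with the library left out, and the share of all tested genes in such fits was not taken. The list median ran from -0.09 without wild type 6 to 0.28 without knockout 9. With all libraries the 2 were Tnfrsf9, the costimulatory receptor 4-1BB, at 301, 341, 509 and 565 CPM (log2 0.74, SE 0.21, edgeR adjusted p 0.369), and Cd40lg, the CD40 ligand, at 6.97, 7.99, 11.5 and 14.2 CPM (log2 0.78, SE 0.29, edgeR adjusted p 0.413). Il2, the cytokine that CD28 sustains, was at 0.0509, 0.405, 0.348 and 0.723 CPM in replicates 1, 6, 9 and 12 and was not tested.

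The genes that govern PD-L1 and PD-L2 lay on both sides of 0, 5 of them with a positive log2 fold change. Of 14 tested, edgeR called 0. The groups did not overlap, with knockout the lower, for 5 of them, and with knockout the higher for 2, against 24.3% and 25.4% of all tested genes. An unadjusted p under 0.05 was reached by 1 gene on the higher side and 4 on the lower side, against 6.23% and 5.73% of all tested genes. DESeq2 called 1 higher (Ifng) and 1 lower, against 0.729% and 0.804% of the genes it adjusted. The list median was -0.12, or -0.09 with the length trend removed. Ifng, which encodes interferon gamma, measured 35.1, 11.3, 65.6 and 129 CPM (log2 2.07, SE 0.57, edgeR adjusted p 0.384, DESeq2 adjusted p 0.00203). Its lowest library, wild type 6, was the one highest in Cd274 and also in Irf2, Jak1 and Jak2 (174, 492 and 345 CPM). Other genes of the list were highest in other libraries. The part of any of these genes in the Cd274 values was not tested. Among those lower at an unadjusted p were Irf2 (-0.67, SE 0.23), Jak1 (-0.59, SE 0.22) and Jak2 (-0.61, SE 0.25). With the length trend removed, 3 of the list were lower at an unadjusted p. Irf2 was then at -0.72, while Jak1 (-0.37, p 0.0669) and Jak2 (-0.40, p 0.0932) no longer reached 0.05 by edgeR (adjusted p 0.485 and 0.505). Without wild type 1 Ifng was at log2 3.10. Those on the lower side were fewer without wild type 6 and without knockout 12, with Irf2, Jak1 and Jak2 no longer among them. The share of all tested genes in such fits was not taken. Ifng was no longer past an unadjusted 0.05 without knockout 12. The list median was -0.34 without knockout 12 and -0.19 without wild type 6.

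The 9 genes that turn over or restrain costimulatory receptors were all tested and had a median of -0.30, or -0.08 with the length trend removed. edgeR and DESeq2 called 0. At an unadjusted edgeR p under 0.05, 1 of the 9 was lower and 0 were higher, against 5.73% and 6.23% of all tested genes. The lower gene was Rc3h2, a paralog of Roquin, the repressor of Icos mRNA, at 44.6, 50.1, 35.3 and 27.9 CPM. Rc3h2 was at log2 -0.58 (SE 0.23, edgeR adjusted p 0.413), and at -0.14 with the length trend removed. It did not reach an unadjusted 0.05 with any library but knockout 9 left out. Cbl, a ubiquitin ligase, was next at 196, 228, 150 and 50.6 CPM (-1.08, SE 0.46), with knockout 12 far below the rest.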

How the data were processed

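RNA-seq was made from 2 wild type and 2 Setd2 knockout cultures, with RNA taken by TRIzol and libraries run on an Illumina HiSeq by a sequencing institute, per the labels' protocols. Per the submitters' processing notes, the authors used Bowtie2 and RSEM, in versions not given in the sources used here, with GRCm38.p6 and mm10 as builds. The deposited table has, for every gene and library, an expected count that need not be whole. Its second value per sample, with no unit in the header, was read as FPKM made by the authors. Its sums differ between samples, and with the count it implies a length for each gene. For some genes, Cd80 among them, the implied length differs between libraries. Its 4 group-average columns were left aside. Of the gene IDs, 99.3% matched RefSeq (GRCm38.p6).

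Expected counts were rounded, filtered with filterByExpr (minimum count 10), scaled by TMM and tested with edgeR 4.0.16 (R 4.3.3, robust, two-sided, Benjamini-Hochberg, threshold 0.05). The fit had 2 residual degrees of freedom per gene. DESeq2 1.42.0 and limma 3.58.1 were alternatives. The length trend was removed by a loess offset (span 0.5) on the length implied by count and FPKM in the library where the gene's FPKM was highest. The test was also run on simulated data, in which it recovered 41% of 100 genes changed 2-fold and 88% of 100 changed 4-fold. Of its 149 calls there, 20 were genes without a change. The changes were planted only in genes above a set mean count, and each library was drawn independently with no length trend. The shares recovered therefore do not give the power of the test in the real data. No pair of libraries agreed within sampling noise (chi-square per degree of freedom 23.5 to 125), so all were kept. Replicate numbers are not shared between genotypes, so no pairing was used.

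The genes, lists and tests were chosen with earlier results of these data known. Named are the 6 genes, all measured genes of the wider family list, the 2 genes of smallest p (or called) in each other list, the most abundant marker of each marker list, and the 3 genes of most similar profile. Some genes that this rule names are not reported here. Carmil2, Prkcq, Irf2, Jak1, Jak2, Il2 and the marker genes other than the most abundant of each list were named after their values were seen. Counting errors cover counting only, while the SE of a fold change also holds the spread between libraries.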

Additional observations from a re-analysis of the deposited data

How the results depend on the processing

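Over 15 alternatives the log2 fold changes of Cd28, Icos, Cd274 and Pdcd1lg2 kept their sign, and no alternative called any of the 6 genes. Leaving out each library in turn gave -0.54 to 0.43 for Cd80, which turned positive without wild type 6, and -0.57 to 0.89 for Cd86, which turned negative without knockout 12. The causes were not tested. For all genes, edgeR called 1, against 81 with no filter on low counts, 2 with the length trend removed, 0 by limma on log2(FPKM + 0.1) and 185 by DESeq2, and 0 to 168 with a library left out (0 without knockout 12, 168 without wild type 1, 30 without wild type 6). In the fits without a library the lone sample of its group is assumed to vary like the other group. The mean level of Pdcd1lg2 was 9.11 as CPM per kb of the GENCODE transcript against 4.59 FPKM, and the GENCODE transcript (1729 bases) is shorter than the length of 3438 bases that the deposited values imply. The median of the signalling list went from -0.27 to -0.03 with the length trend removed, and that of the genes induced with costimulation from 0.09 to -0.09 without wild type 6. The scarcest genes rest on few counts, with lowest values of 217 for Cd80 and 226 for Pdcd1lg2.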

Other observations

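The genes whose profile over the 4 libraries was most like each of the 6 were read from 9638 other tested genes with a mean of at least 5 CPM, by the root mean square difference of log2 CPM after centring each gene on its own mean. With 4 libraries many genes come close to any profile, so this is a description. Nearest to Cd28 were Cep170, Kcns3 and Taok1 (differences of 0.012, 0.013 and 0.015), all lowest in knockout 12, with Cep170 at 65.1, 69.9, 64.2 and 36.5 CPM in replicates 1, 6, 9 and 12. Nearest to Icos were Ddt, Pigf and Ndufs8 (0.011, 0.014 and 0.021), with Ddt at 38.8, 25.0, 36.3 and 46.1 CPM. Nearest to Cd80 were H2-Q6, Neurl3 and D17H6S53E (0.015, 0.040 and 0.054), all highest in wild type 6. Nearest to Cd86 were Hspa2, Casp1 and Bcl2a1b (0.081, 0.113 and 0.114), all highest in knockout 12. Nearest to Cd274 were Etfrf1, Bin2 and Casz1 (0.018, 0.028 and 0.040), with Bin2 at 283, 396, 215 and 214 CPM. Nearest to Pdcd1lg2 were Nrbp1, Ano8 and Hexa (0.020, 0.020 and 0.022). Among the 6 themselves the closest pair was Cd80 and Pdcd1lg2 (0.262), followed by Cd274 and Pdcd1lg2 (0.277), and the most distant was Cd28 and Cd86 (0.842). The receptors Cd28 and Icos, neighbours on the chromosome, were 0.642 apart, near the far end of this range, while the neighbours Cd274 and Pdcd1lg2 were near its close end.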
